A study of Mus musculus with 2 samples.

Results

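The genes described here are 5 Wnt ligand genes of the mouse, Wnt2b, Wnt4, Wnt5b, Wnt6 and Wnt7b, out of 32285 genes counted. They were selected by name after an earlier analysis of the same libraries in which Wnt6 was among the genes with the largest difference between neurosphere and adherent cells. The contrast between the cultures was therefore used in the choice, and its values are given as a description with no test. All 5 were found in the files, among 19 Wnt ligand genes.

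GL261 is a mouse glioma cell line from the C57BL/6 strain, labelled as astrocytoma, and it was grown in 2 ways in DMEM with 10% FBS. Adherent cells were left in this medium without additions, and neurosphere cells, which float as aggregates, received EGF and FGF at 20 ng/ml each and B-27 at 1:50 and were collected after 12 days. Per the labels, adherent cells were detached with trypsin, while neurospheres were spun down, put in trypsin and broken up by pipetting. Both were frozen in medium with 10% DMSO, and 1 library of each was made with the 10x Genomics 3′ v3 chemistry, which counts unique molecular identifiers (UMIs) per gene and cell.

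With 1 library per culture, a difference between the cultures and a difference between the libraries cannot be told apart, and no difference has a replicate check. All intervals below are exact 95% intervals, and they and the floor of 3 counts cover counting error only. The adherent library held 68531063 UMIs in 5764 called cells and the neurosphere library 82832873 UMIs in 4951 called cells. After mitochondrial and ribosomal protein genes and shallow cells were left out, 5051 adherent cells with 46290996 UMIs and 4276 neurosphere cells with 64943938 UMIs were kept. Levels are given as CPM, the UMIs of a gene scaled to the same total of these UMIs in each library. The libraries had 12 called barcodes in common, of which 9 were kept in both.

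The astrocytoma label was set against 10 astrocyte markers. Aqp4 and Sox9 had 0 UMIs in both libraries, and Gfap, the classical astrocyte filament gene, had 30 adherent and 27 neurosphere UMIs. Slc1a3 was the most abundant of the 10 in adherent cells, with 17148 UMIs there and 5231 in neurosphere cells. The 10 markers summed to 607 CPM (adherent) and 430 CPM (neurosphere), so that Aqp4 and Sox9 were absent and Gfap scarce while other markers were present. Of the 7 markers with at least 50 UMIs over both libraries, 0 were over 2-fold higher in neurosphere cells (21.7% of all genes). Slc1a3 and Gja1, 2 of the 7, were over 2-fold lower (11.7% of all genes). The median log2 ratio of neurosphere to adherent CPM of the 7 was 0.57, against 0.32 for all genes, so the lower sum does not describe most of them. A list of 8 immune markers had 508 adherent and 329 neurosphere UMIs, of which Cd68 gave 485 and 276 and Ptprc 1 and 0.

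Wnt ligands are secreted lipid-modified glycoproteins that bind Frizzled receptors and Lrp5 or Lrp6 on nearby cells, which spares β-catenin from degradation and lets it act with TCF factors in the nucleus, or they signal without β-catenin through planar polarity and calcium branches. The acyltransferase Porcn attaches the lipid, and the carrier Wls takes the ligand to the cell surface. In the developing brain the pathway is known for patterning, for blood vessel growth and for renewal of neural progenitors, and in glioma it has been linked to stem-like growth.

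Wnt6 had 20 UMIs in adherent cells, or 0.432 CPM (0.264 to 0.667). In neurosphere cells it had 14908 UMIs, or 230 CPM (226 to 233). Wnt6 was thus near the lower limit of detection in the adherent library and abundant in the neurosphere library, and the log2 ratio of neurosphere to adherent CPM was 9.05 (8.43 to 9.77), a 531-fold difference. With each cell thinned to 5000 UMIs the log2 ratio was 9.83, a value that rests on 7 adherent cells with a Wnt6 UMI.

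Wnt7b, a ligand known from brain vessel development, had 83 adherent and 292 neurosphere UMIs, with 1.79 and 4.50 CPM. Wnt4, a ligand of kidney and gonad development, had 38 and 99 UMIs, with 0.821 and 1.52 CPM. The log2 ratios were 1.33 (0.97 to 1.70) for Wnt7b and 0.89 (0.34 to 1.47) for Wnt4. Both were higher in the neurosphere library, at levels far under that of Wnt6 on the same CPM scale.

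Wnt2b had 0 UMIs in the kept adherent cells and 73 UMIs, or 1.12 CPM, in neurosphere cells. Against a floor of 3 counts in the adherent library, it was at least 17.3-fold higher in neurosphere cells, a log2 ratio of 4.12 that leaves out the counting error of the 73 UMIs. The exact interval of the log2 ratio, which includes it, begins at 3.78, and the bound against the floor was 3.20 with each cell thinned to 5000 UMIs. Taken as 3 counts, the 0 among 5051 adherent cells allows a share of cells with a UMI of up to 0.0594%.

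Wnt5b, which signals mainly without β-catenin, was the member that went the other way. It had 158 adherent and 79 neurosphere UMIs, with 3.41 and 1.22 CPM and a log2 ratio of -1.49 (-1.90 to -1.09). Of the 5 members, 3 were over 2-fold higher and 1 over 2-fold lower in neurosphere cells. Among the 14654 genes whose UMIs in the libraries together reached 50, 21.7% were over 2-fold higher and 11.7% over 2-fold lower, and nothing is read from the members' count, since this contrast was used to choose them.

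The background depended on the scaling. The median log2 ratio of the 14654 genes was 0.32, and TMM scaling lowered it by a shift of -0.22, the median of ratios by -0.25, while a total that includes mitochondrial and ribosomal genes shifted it by 0.22. Genes over 2-fold higher made up 65.0% of all genes past 2-fold in either direction, 52.5% with TMM scaling, 50.6% with the median of ratios and 75.9% with the mitochondrial and ribosomal genes in the total. All 5 members kept their direction under these scalings.

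Levels of different ligands were compared per kilobase of annotated exon. In neurosphere cells, Wnt6 stood at 105 CPM per kb and Wnt7b followed at 0.918 CPM per kb (0.816 to 1.03). Wnt5b at 0.458 CPM per kb (0.363 to 0.571) and Wnt4 at 0.363 CPM per kb (0.295 to 0.443) did not differ beyond counting error, nor did Wnt4 and Wnt2b at 0.268 CPM per kb (0.210 to 0.336). The order was another one in adherent cells.

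There, Wnt5b was the highest member at 1.29 CPM per kb (1.09 to 1.503), ahead of Wnt7b at 0.366 CPM per kb (0.292 to 0.454). Wnt6 and Wnt4 did not differ, at 0.197 CPM per kb (0.120 to 0.304) and 0.196 CPM per kb (0.139 to 0.269). The 3′ chemistry reads transcript ends, so a level per kilobase is a convention and not a measure of whole transcripts, and whether intron reads were counted is not given in the sources used here. By UMIs alone the order differs, with Wnt4 (99) above Wnt5b (79) in the neurosphere library and Wnt4 (38) above Wnt6 (20) in the adherent library.

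**Figure D1:**
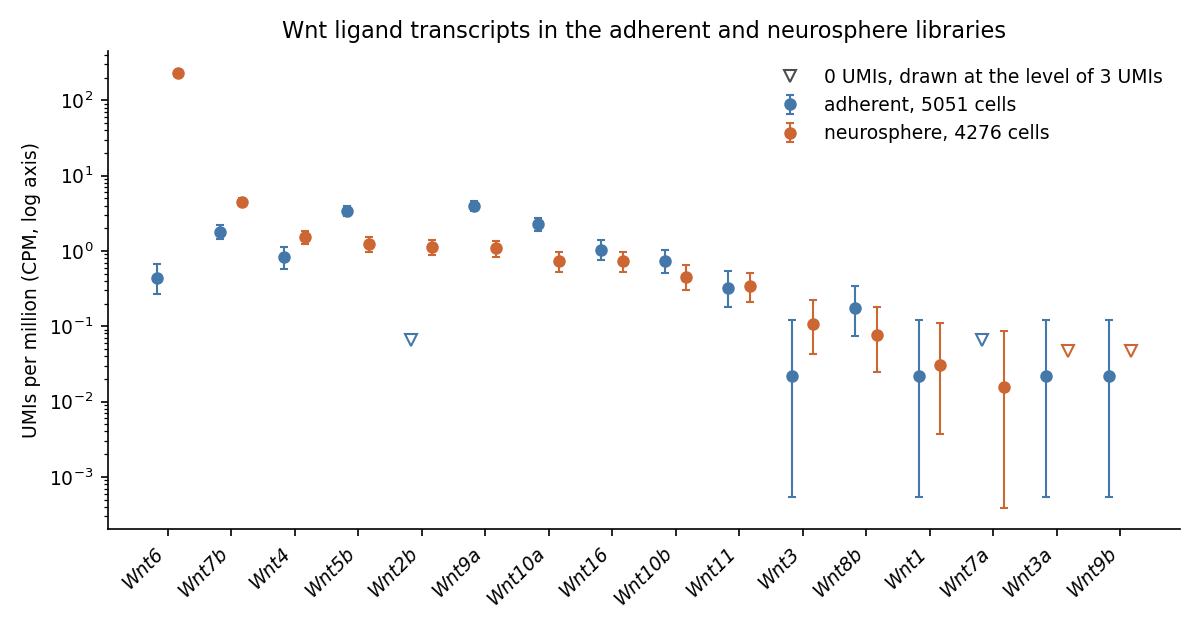
CPM (log axis) of each of the Wnt ligands with a UMI in either library, in the 5051 adherent and 4276 neurosphere cells kept. Points are library sums, bars are exact 95% Poisson intervals for counting error only, and open triangles mark 0 UMIs at the level of 3 UMIs. Wnt6 stands at 0.432 CPM for the adherent library and 230 CPM for the neurosphere library, while Wnt5b, Wnt9a and Wnt10a are higher in adherent cells.

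Ligands outside the members were counted as well. The 14 ligands outside the members included Wnt9a, with 182 adherent and 70 neurosphere UMIs, and Wnt10a, with 105 and 47 UMIs. Their log2 ratios were -1.87 (-2.29 to -1.46) and -1.65 (-2.18 to -1.14). Wnt2, Wnt5a and Wnt8a had 0 UMIs in both libraries.

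Wnt16 had 48 and 47 UMIs, Wnt10b 34 and 29, and Wnt11 15 and 22. Wnt8b had 8 and 5 UMIs, and the remaining 5 ligands (Wnt1, Wnt3, Wnt3a, Wnt7a and Wnt9b) had at most 7 UMIs in a library. Each library had UMIs of 14 of the 19 ligands, though not of the same 14, and 9 had at least 10 UMIs in the adherent library and 10 had so in the neurosphere library.

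All 19 ligands summed to 695 UMIs, or 15.01 CPM, for the adherent library and to 15681 UMIs, or 241 CPM, for the neurosphere library. Without Wnt6 the sums were 675 UMIs (14.6 CPM) and 773 UMIs (11.9 CPM), a log2 ratio of -0.29 (-0.44 to -0.14). The higher ligand total of the neurosphere library was therefore held by Wnt6. Its share of the ligand UMIs was 2.88% (1.77% to 4.41%) in the adherent library and 95.1% (94.7% to 95.4%) in the neurosphere library. The largest adherent shares were those of Wnt9a with 26.2% and Wnt5b with 22.7%.

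In the kept adherent cells, 19 cells had a Wnt6 UMI, 0.376% of them (0.227% to 0.587%), and 18 of these had exactly 1 UMI. None of the 19 barcodes was also called in the neurosphere library. Krt8, a simple epithelial keratin that is itself high in neurosphere cells, had a UMI in 2 of the 19 cells, or 10.5%, against 2.69% of all adherent cells, and Ptgds had one in 4 of them, or 21.1%, against 3.31%. Dll3 had one in 0 of them, against 0.693%, and S100a4 in 13, or 68.4%, against 69.5%. With so few cells these shares say little.

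Neurosphere cells with a Wnt6 UMI numbered 2495, or 58.3% (56.9% to 59.8%) of the 4276. Since these cells were deeper, with a median of 13198.5 UMIs against 8260 in adherent cells, each cell was also thinned to 5000 UMIs, for which 587 adherent cells and 80 neurosphere cells were too shallow. The adherent share was then 0.157% and the neurosphere share 43.9% (42.4% to 45.4%). The other members were seen in few cells of either culture after thinning, with adherent and neurosphere shares of 0.762% and 1.55% for Wnt7b and of 1.52% and 0.667% for Wnt5b. They were 0.470% (0.291% to 0.718%) and 0.643% (0.424% to 0.935%) for Wnt4, with overlapping intervals, and 0 and 0.620% for Wnt2b.

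Within the neurosphere library Wnt6 was spread unevenly over cells. Of the 4196 thinned cells, 2353 had 0 Wnt6 UMIs, 667 had 1, 365 had 2 and 283 had more than 5, with a highest value of 43. The variance of the thinned Wnt6 UMIs was 5.28 times their mean. The 10% of cells with the most Wnt6 held 54.9% of its UMIs, against 34.5% for Wls, a gene of similar mean count (1.71 UMIs per cell against 1.43 for Wnt6), and 61.5% for Dll3 (1.34 UMIs per cell).

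The level of Wnt6 was tied to the depth of the cells. The neurosphere cells were divided by their UMIs into 4 groups of 1069 cells. In the group with the fewest UMIs, Wnt6 stood at 476 CPM (460 to 492), and in the group with the most at 148 CPM (143 to 152). The share of cells with a Wnt6 UMI before thinning was 56.8% (53.8% to 59.8%) in the shallowest group and 61.0% (58.0% to 63.9%) in the deepest. Shallow cells thus held almost as many Wnt6 UMIs as deep ones, 3574 against 4237, among far fewer UMIs in all.

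Genes that varied with Wnt6 were sought by Pearson's r of log-transformed thinned UMIs over the 4196 neurosphere cells. These cells share 1 library, so r describes this library and has no p. Of 6657 other genes with a UMI in at least 10% of the cells, 35 had an r over 0.2 and 9 an r under -0.2, and the median r was -0.004.

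The highest values belonged to Col9a1, a cartilage collagen (r = 0.357), Bcan, a proteoglycan of brain matrix (0.351), and Grasp, a scaffold protein of receptor trafficking (0.349). They were followed by the transporter-like gene Svopl (0.328), Fbxo2 (0.321), which marks glycoproteins for degradation, and the Wnt receptor gene Fzd2 (0.305). Aldh3b1 (0.302), Tinagl1 (0.2997) and Col18a1 (0.297), a collagen of basement membranes, came next. Fzd2 was the one gene of the Wnt pathway lists among the first 15.

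The list of 15 was completed by Nrtn, a neurotrophic ligand (0.276), Itgb1, an integrin subunit (0.269), Unc93b1 (0.266), the tetraspanin gene Cd81 (0.266), Nptx1 (0.258) and Podxl2 (0.254). Among themselves the 15 genes formed 105 pairs with a median r of 0.221, from 0.014 to 0.426 for Col9a1 with Grasp. Of the 15, 13 were also over 2-fold higher in the neurosphere than in the adherent library, against 19.9% of the 6657 genes. Fbxo2 and Itgb1 were the others, with log2 ratios of 0.17 and 0.06. The genes were admitted by their neurosphere UMIs alone and the fold used the main scaling only, so nothing is read from this count. All r values were modest, and for sparse genes such as Nrtn, with a UMI in 13.9% of the cells, counting noise limits them.

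The lowest values were those of Ran, a GTPase of nuclear transport (-0.238), the chaperone genes Hsp90aa1 (-0.230), Hspd1 (-0.218) and Hspe1 (-0.213), and the nucleolar gene Npm1 (-0.217). None of these 5 was over 2-fold higher in neurosphere cells, against 19.9% of the 6657 genes. Nothing is read from this count either, for the same reasons. Hsp90aa1 and Hspe1 were over 2-fold lower, with log2 ratios of -1.38 and -1.28. The share over 2-fold lower is given for the 14654 genes with at least 50 UMIs, where it was 11.7%, and not for the 6657 genes.

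Cells grouped by their Wnt6 UMIs show the size of these relations. Mean Col9a1 UMIs per thinned cell were 3.66 (3.59 to 3.74) in the 2353 cells without Wnt6, 5.90 in the 1032 cells with 1 to 2 UMIs, 7.63 in the 528 cells with 3 to 5 and 10.5 (10.1 to 10.9) in the 283 cells with more than 5. For Bcan the means were 1.35, 1.99, 2.63 and 4.17, and for Ran they were 6.10, 5.59, 4.38 and 2.95. Col9a1 and Bcan were higher, and Ran lower, in each group with more Wnt6.

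The same groups differed in depth, in mitochondrial percent and in cell cycle transcripts. The median mitochondrial percent was 3.83% in cells without Wnt6 and 4.67% in cells with more than 5 Wnt6 UMIs. Median UMIs before thinning were 14347 in cells without Wnt6 and 8803 in cells with more than 5 Wnt6 UMIs, and r of Wnt6 with log10 of the UMIs of the cell was -0.216. The 10 G2/M genes summed to 8.70 UMIs per thinned cell without Wnt6 and to 3.07 with more than 5, and r of Wnt6 with this sum was -0.184, while it was -0.037 for 10 G1/S genes. With a linear fit on log10 of the UMIs taken out, which was added as an alternative once the data had been seen, 12 of the 15 genes stayed among the first 15, and with the mean of each cluster taken out 9 did, with an r of at least 0.108 for every one of the 15.

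**Figure D2:**
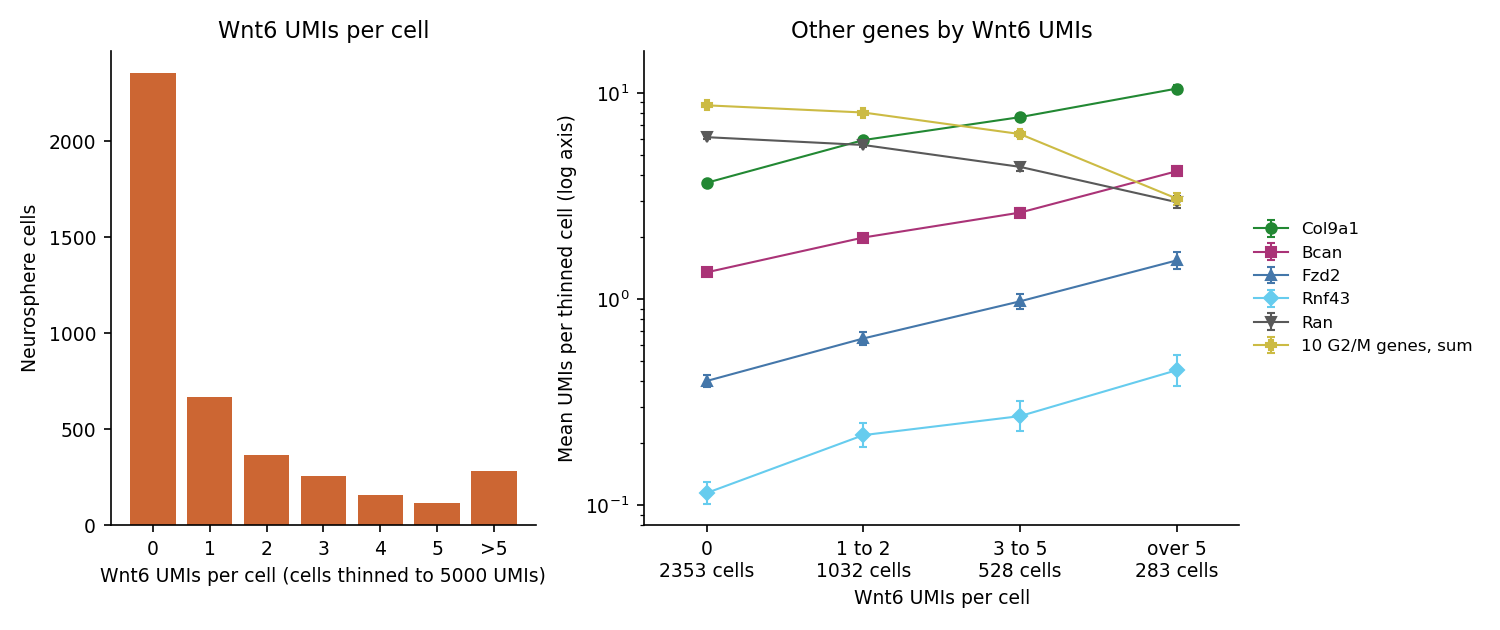
Left, number of the 4196 neurosphere cells, each thinned to 5000 UMIs, by their count of Wnt6 UMIs. Right, mean UMIs per thinned cell (log axis) of 5 genes and of the sum of 10 G2/M genes in the groups with 0, 1 to 2, 3 to 5 and over 5 Wnt6 UMIs, with exact 95% Poisson intervals for counting error only; Col9a1 goes from 3.66 to 10.5 and the G2/M sum from 8.70 to 3.07.

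Krt8, Ptgds, Dll3 and Matn1 were, like Wnt6, scarce or absent in adherent cells and abundant in neurosphere cells. Krt8 had 182 adherent and 196433 neurosphere UMIs, Ptgds, which makes prostaglandin D, 263 and 63864, and Dll3, a Notch ligand, 36 and 16202. Matn1, a cartilage matrix gene, had 0 and 7603 UMIs. By r with Wnt6 across neurosphere cells, these genes ranked 22, 68, 132 and 243 among the 6657 genes. Their r was 0.231 for Krt8, 0.168 for Ptgds, 0.137 for Dll3 and 0.105 for Matn1, all under the first 15 by this measure. For Krt8 it was 0.246 with the fit on depth taken out and 0.254 by Spearman's rho, both within the range of the 15 genes there (from 0.206 and from 0.237), and 0.089 with cluster means taken out.

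The other members were set against Wnt6 in single cells. Wnt7b had a UMI in 16 of 1843 thinned cells with Wnt6, or 0.868% (0.497% to 1.41%), and in 49 of 2353 cells without it, or 2.08% (1.54% to 2.74%). Wnt2b was seen in 0.543% and 0.680% of the same cells, Wnt4 in 0.597% and 0.680% and Wnt5b in 0.543% and 0.765%, all with overlapping intervals. Wnt7b was thus seen less often in cells with Wnt6 than in cells without it in this library, and the other members could not be told apart at this depth.

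Clustering of the kept neurosphere cells without the Wnt ligands among the variable genes gave 10 clusters, numbered from 0 to 9. Wnt6 was highest in cluster 1, at 763 CPM (739 to 787), and these 603 cells held 26.3% of the Wnt6 UMIs against 7.92% of all UMIs. Cluster 8 at 305 CPM (284 to 327) and cluster 2 at 285 CPM (273 to 298) followed and did not differ beyond counting error. The lowest level was that of cluster 7, at 69.2 CPM (60.9 to 78.2), where 254 Wnt6 UMIs were counted in 394 cells.

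Cluster 1 had the lowest median depth, 7645 UMIs per cell, and cluster 7 the next lowest, 8271.5, so the clusters with the highest and the lowest Wnt6 level were both shallow. Cluster 1 also had the highest mitochondrial percent, 5.03%, and the lowest level of the 10 G2/M genes, 97.4 CPM. Next in both was cluster 7, at 4.95% and 190 CPM. The neurosphere clusters ran from 69.2 to 763 CPM, while the 10 adherent clusters ran from 0 to 1.06 CPM. At the lower resolution of 0.6 the neurosphere range was narrower, from 105.5 to 767 CPM. Comp, another cartilage matrix gene, was the leading gene of cluster 1, and cluster 7 was led by Enpp2 and had the myelin gene Mbp among its 10 leading genes.

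Wnt7b had a different pattern. Cluster 6 held 197 of its 292 neurosphere UMIs, or 67.5%, at 20.6 CPM (17.8 to 23.7), and cluster 5 followed at 6.74 CPM (4.79 to 9.21). In cluster 1, where Wnt6 was highest, Wnt7b stood at 0.778 CPM (0.212 to 1.99). The cells of cluster 6 were the deepest, with a median of 21421 UMIs, and their Wnt6 level was 112 CPM (106 to 119).

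Wnt4 was highest by its point value in cluster 7, at 3.27 CPM (1.69 to 5.71), and cluster 0 held 31 of its 99 UMIs at 2.94 CPM (2.00 to 4.17), which could not be told apart. Wnt2b had between 0 and 14 UMIs per cluster, too few for an order. In adherent cells, Wnt5b was at 10.1 CPM (6.85 to 14.3) in cluster 6, where 397 cells held 31 of its 158 UMIs. Cluster 9 had 1 Wnt5b UMI in 48 cells, and the highest level among the other clusters was 4.58 CPM (3.21 to 6.35) in cluster 0.

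**Figure D3:**
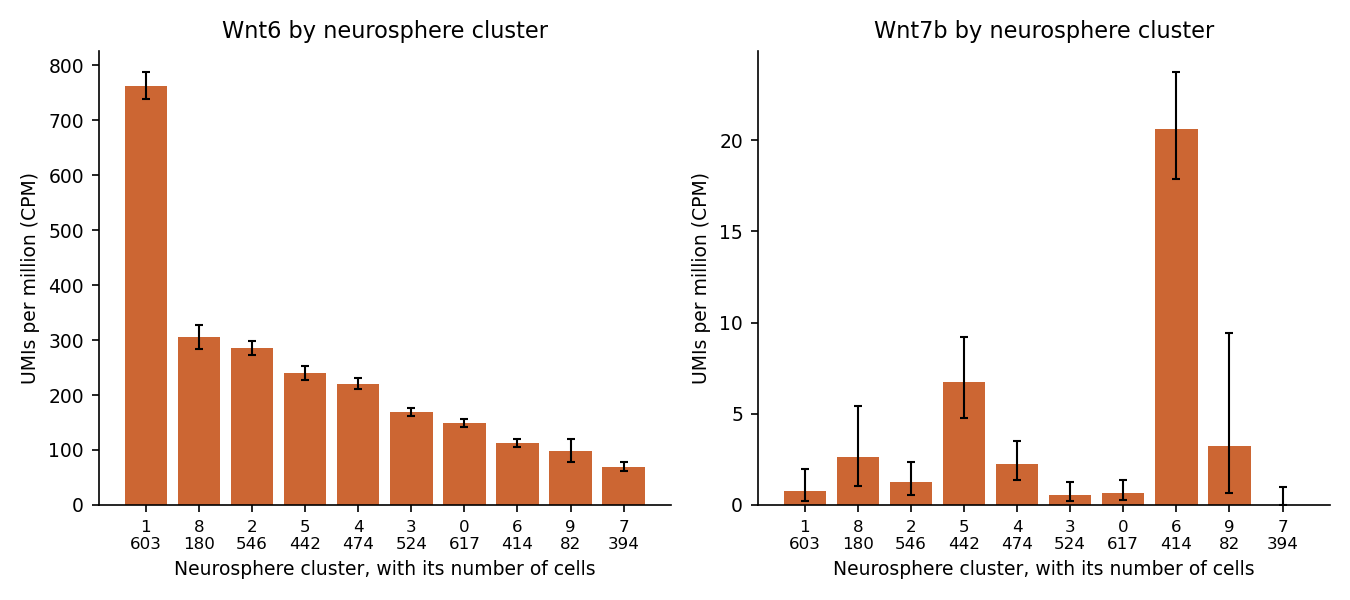
CPM of Wnt6 (left) and Wnt7b (right) in the 10 neurosphere clusters, ordered by their Wnt6 level, with the number of cells under each cluster number. Bars are cluster sums and error bars exact 95% Poisson intervals for counting error only. Wnt6 is highest in cluster 1 (763 CPM) and Wnt7b in cluster 6 (20.6 CPM).

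Genes that release the ligand were counted next. Wls had 1729 adherent and 18519 neurosphere UMIs, with 37.4 and 285 CPM and a log2 ratio of 2.93 (2.86 to 3.004). Porcn had 125 and 215 UMIs, with 2.70 and 3.31 CPM and a ratio of 0.29 (-0.03 to 0.62), near the median of 0.32 of all genes. Of the 3 release genes with at least 50 UMIs, 1 was over 2-fold higher and 0 lower (21.7% and 11.7% of all genes), and in neurosphere cells Wls had an r with Wnt6 of 0.150, which was 0.089 with the fit on depth taken out and 0.075 with cluster means taken out.

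Of the Frizzled receptors and co-receptors, 13 of 18 had at least 50 UMIs over both libraries, 6 were over 2-fold higher and 1 over 2-fold lower (21.7% and 11.7% of all genes), with a median log2 ratio of 0.93 against 0.32 for all genes. Fzd2 had 778 and 6707 UMIs, with 16.8 and 103 CPM and a ratio of 2.62 (2.51 to 2.73), and Lrp5 had 247 and 143 UMIs with a ratio of -1.28 (-1.58 to -0.97). With TMM scaling 3 of the 13, Fzd1, Fzd2 and Ptk7, remained over 2-fold higher (16.1% of all genes), and with mitochondrial and ribosomal genes in the total 8 were (29.5%). Lrp6, the co-receptor related to Lrp5, had 3143 and 9164 UMIs with a ratio of 1.06 and was among those under 2-fold with TMM scaling.

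Fzd2 is described further because of its r with Wnt6, and its means in groups of the same cells restate that r. They were 0.401 UMIs per thinned cell (0.376 to 0.427) without Wnt6, 0.644 with 1 to 2 Wnt6 UMIs, 0.975 with 3 to 5 and 1.54 (1.399 to 1.69) with more than 5. Fzd2 was highest in cluster 1, at 265 CPM, and beyond it the clusters kept the order of Wnt6 only in part. Cluster 2, which did not differ from cluster 8 in Wnt6, was next at 163 CPM of Fzd2 (154 to 172). Cluster 6, with 112 CPM of Wnt6, was lowest at 39.8 CPM of Fzd2 (35.9 to 44.0). Cluster 7, lowest in Wnt6, had 123 CPM of Fzd2 (112 to 135) and cluster 8, second in Wnt6, had 119 CPM (107 to 133).

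Secreted inhibitors were few. Of 13 listed, 4 had at least 50 UMIs, of which 3 were over 2-fold higher and 1 lower (21.7% and 11.7% of all genes), and 7 had 0 UMIs in neurosphere cells, 5 in adherent cells. Notum, which removes the lipid of the ligand, had 5 and 109 UMIs with a log2 ratio of 3.96 (2.69 to 5.61), Wif1 had 103 and 500, and Frzb 27 and 185, while Igfbp4 had 710 and 409. The list as a whole stood at 18.6 CPM in both libraries.

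R-spondins act through Lgr receptors on the ubiquitin ligases Rnf43 and Znrf3, which remove Frizzled receptors from the cell surface. Rnf43 had 21 adherent and 1777 neurosphere UMIs, with 0.454 and 27.4 CPM and a log2 ratio of 5.91 (5.30 to 6.61). Rspo1 had 264 and 70 UMIs and Lgr6 246 and 39, with ratios of -2.40 (-2.81 to -2.02) and -3.15 (-3.67 to -2.65). Of the 6 genes of this list with at least 50 UMIs, 2 were over 2-fold higher and 2 over 2-fold lower (21.7% and 11.7% of all genes); with TMM scaling Znrf3, at 1.02 in the main scaling, was under 2-fold, which left 1 higher (16.1% of all genes).

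Rnf43 had an r of 0.192 with Wnt6 across neurosphere cells, and its mean went from 0.115 UMIs per thinned cell (0.101 to 0.129) without Wnt6 to 0.452 (0.377 to 0.538) with more than 5 Wnt6 UMIs. Its level in cluster 1 was 91.7 CPM (83.7 to 100), and its lowest level 5.24 CPM in cluster 6. Cluster 7, with the least Wnt6, stood at 40.9 CPM of Rnf43 (34.6 to 47.9), which could not be told apart from cluster 8, second in Wnt6, at 33.99 CPM (27.3 to 41.8).

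Among β-catenin, its destruction complex and its partners, 8 of 16 genes were over 2-fold higher and 0 lower (21.7% and 11.7% of all genes), with a median of 0.95 against 0.32 for all genes, while 6 were over 2-fold higher with TMM scaling (16.1% of all genes), 4 with the median of ratios (15.4%) and 10 with mitochondrial and ribosomal genes in the total (29.5%). Tcf7l2, a nuclear partner of β-catenin, had 701 and 5033 UMIs with a log2 ratio of 2.36 (2.24 to 2.47). Ctnnb1, which encodes β-catenin, had 1474 and 4880 UMIs with a ratio of 1.24 (1.15 to 1.32). Their r with Wnt6 across cells was 0.052 for Tcf7l2 and -0.031 for Ctnnb1. Mean Tcf7l2 was 0.447 UMIs per thinned cell (0.420 to 0.475) without Wnt6 and 0.412 with 1 to 2 Wnt6 UMIs. It was 0.500 (0.4415 to 0.564) with 3 to 5 and 0.671 (0.579 to 0.774) with more than 5. Mean Ctnnb1 was 0.419 (0.393 to 0.446) without Wnt6 and 0.3498 (0.284 to 0.426) with more than 5. Tcf7l2 was thus higher beyond counting error only in the group with the most Wnt6, and Ctnnb1 did not differ beyond counting error.

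Genes commonly induced by β-catenin went in both directions. Of 14 listed, 8 had at least 50 UMIs, of which 4 were over 2-fold higher and 2 over 2-fold lower (21.7% and 11.7% of all genes), and 3 were over 2-fold higher with TMM scaling (16.1%) or the median of ratios (15.4%). Of the 4, Notum, Rnf43 and Znrf3 were also counted in the inhibitor or R-spondin list. Axin2, a negative regulator in the destruction complex, had 36 and 179 UMIs with a log2 ratio of 1.83 (1.30 to 2.38), whereas Nkd2 had 668 and 125 with -2.91 (-3.19 to -2.63) and Tcf7 147 and 76 with -1.44 (-1.86 to -1.03). Lef1 had 0 adherent and 4 neurosphere UMIs, and Sp5 had 0 in both.

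Axin2 was sparse in single cells, at 0.013 UMIs per thinned cell (0.009 to 0.018) without Wnt6. It was at 0.020 (0.013 to 0.031) with 1 to 2 Wnt6 UMIs and 0.017 (0.008 to 0.032) with 3 to 5. With more than 5 it was at 0.057 (0.032 to 0.092), which rests on 16 Axin2 UMIs in 283 cells. Of the 22 genes of the release, receptor, inhibitor, R-spondin, β-catenin, target and polarity lists with a UMI in at least 10% of the cells, 3 (Fzd2, Rnf43 and Wls) had an r with Wnt6 over 0.1 and 0 had one under -0.1, with a median of -0.002. Wls was under 0.1 with the fit on depth taken out (0.089) and with cluster means taken out (0.075), and Rnf43 was at 0.162 and 0.117. Of all genes, 4.01% and 3.20% were past these limits.

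The planar polarity list had 8 genes with at least 50 UMIs, 2 over 2-fold higher and 2 over 2-fold lower (21.7% and 11.7% of all genes). Prickle1 had 122 and 2150 UMIs with a log2 ratio of 3.65 (3.39 to 3.93), and Daam1 had 3686 and 1942 with -1.41 (-1.49 to -1.33). With the median of ratios 1 gene, Prickle1, was over 2-fold higher (15.4% of all genes), and with mitochondrial and ribosomal genes in the total 3 were (29.5%).

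Of the cell type marker lists, the cartilage matrix list had the highest r with Wnt6 across neurosphere cells, 0.335 for the sum of 13 genes, of which Col9a1 is one. It summed to 726 CPM (adherent) and 4104 CPM (neurosphere), with 8 of its 11 genes with at least 50 UMIs over 2-fold higher (21.7% of all genes), and Sox9 at 0 UMIs in both libraries. The simple epithelial list, which includes Krt8, had an r of 0.218, and its 10 genes summed to 26.0 and 3175 CPM. Krt8 alone gave 3025 CPM of the neurosphere sum and Epcam 21.6 CPM of the adherent sum, and 4 of the 10 genes had at least 50 UMIs. The oligodendrocyte lineage list had an r of -0.069, with 852 and 3473 CPM, and the astrocyte list 0.074. The neuron list had an r of 0.133, with 51.5 and 236 CPM, and the fibroblast list 0.071, with 7.11 and 565 CPM and 4 of its 4 genes with at least 50 UMIs over 2-fold higher (21.7% of all genes). The neural stem, immune and endothelial lists had r of -0.009, -0.044 and -0.056.

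Wnt6 (ENSMUSG00000033227) occupies bases 74771892 to 74785322 of chromosome 1 in GRCm38 and is read from the plus strand, and Wnt10a begins 6193 bp downstream on the same strand. These neighbours differed in direction between the libraries, with log2 ratios of 9.05 for Wnt6 and -1.65 for Wnt10a. Within 100 kb of Wnt6, 9 genes are annotated, of which 3 had at least 50 UMIs over both libraries. Of the 3, 0 were over 2-fold higher, and Wnt10a and Cyp27a1 were over 2-fold lower (21.7% and 11.7% of all genes). Cyp27a1 had 435 and 299 UMIs and a ratio of -1.03 (-1.25 to -0.81), an interval that reaches under 2-fold.

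An antisense gene, Gm29539, lies inside Wnt6 on the minus strand and had 0 adherent and 36 neurosphere UMIs, too few for the count above. Inside Wnt5b lies Fbxl14 on the opposite strand, with 375 and 1264 UMIs, and AU022754 overlaps Wnt7b with 2 and 28. The files count these genes apart from the ligands. Whether counting used strand is not stated in the sources used here, and a share of their UMIs in those of the ligand was not tested.

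Wnt2b (ENSMUSG00000027840) lies on chromosome 3 from 104945272 to 104961921 on the minus strand, and Wnt4 (ENSMUSG00000036856) on chromosome 4 from 137277489 to 137299726 on the plus strand. Wnt5b (ENSMUSG00000030170) spans 119432531 to 119544347 of chromosome 6 and Wnt7b (ENSMUSG00000022382) 85535437 to 85582473 of chromosome 15, both on the minus strand. Over 2-fold higher among their neighbours within 100 kb were St7l for Wnt2b (1 of 4 genes with at least 50 UMIs) and Fbxl14 for Wnt5b (1 of 3). For Wnt4 0 of 2 and for Wnt7b 0 of 3 were, against 21.7% of all genes. Neighbours of all members were counted with the main scaling only, where St7l had a log2 ratio of 1.14 and Fbxl14 1.26.

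RefSeq promoter sequences of GRCm38.p6 were matched for 4 of the 5 members, Wnt7b being the one without. The 250 bases before the start of Wnt6, chr1:74771642-74771891 on the plus strand, are shown since this gene held most of the ligand UMIs, with each GC box (GGGCGG, or CCGCCC on the other strand) in capitals.
Wnt6: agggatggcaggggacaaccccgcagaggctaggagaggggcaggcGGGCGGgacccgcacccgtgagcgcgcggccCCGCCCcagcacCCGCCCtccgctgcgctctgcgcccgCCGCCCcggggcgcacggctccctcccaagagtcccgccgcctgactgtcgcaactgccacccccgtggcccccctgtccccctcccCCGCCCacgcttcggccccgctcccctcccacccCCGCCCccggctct
This stretch has 79.6% G and C, against a median of 52.4% over 32851 promoters, and holds 6 GC boxes, a motif found in 32.7% of these promoters. The same motif occurred 3 times in the stretch of Wnt2b and 8 times in that of Wnt4, and 1, 0 and 2 times in the 3 stretches of Wnt5b. These stretches follow the RefSeq starts, and those of Wnt2b, Wnt4 and 2 of Wnt5b lie in part or whole inside the gene as GENCODE places it. The TCF/LEF letters CTTTGA (13.8% of promoters), the SOX letters ACAATG (10.7%) and the TATA box letters TATAAA (12.4%), searched on both strands, had no match in the stretch of Wnt6; among the members, CTTTGA occurred once, in a promoter of Wnt5b.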

How the data were processed

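The authors deposited raw UMI counts per gene and called cell of 1 adherent and 1 neurosphere library, made with Cell Ranger 7.0.1 on mm10 per the submitters' processing notes; the annotation release is not given in the sources used here. The 13 mitochondrial (mt-) and 101 ribosomal protein (Rps, Rpl) genes were removed, then cells with under 1000 UMIs or under 1250 (adherent) or 2250 (neurosphere) genes. UMIs were summed per library and given as CPM, with exact Poisson, binomial and conditional 95% intervals. A count of 0 took a floor of 3 counts. No doublets were removed; cells over the 95th percentile of UMIs were left out as an alternative.

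Clusters came from Seurat 5.3.0 in R 4.3.3 (2000 variable genes less the Wnt ligands, 18 PCs for neurosphere and 17 for adherent cells, resolution 1.0). TMM factors came from edgeR 4.0.16 and size factors from DESeq2 1.42.0. The rest used Python 3.11.15, numpy 2.4.6 and scipy 1.17.1, and the ratio and correlation steps were tested on simulated data. Other cell filters, scalings, thinning depths, correlation measures and cluster settings were tried as alternatives. All but 1 of them were planned, though earlier results of these data were already known.

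The members and gene lists were chosen with earlier results of these data known. Named genes were the members, other ligands with a UMI, pathway genes whose UMIs in the libraries together reached 50, the 15 highest and 5 lowest r with Wnt6, Krt8, Ptgds, Dll3 and Matn1, and genes within 100 kb of a member; markers, cluster leaders and listed genes at 0 were added after their values were seen, as were the groups by Wnt6 UMIs.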

Additional observations from a re-analysis of the deposited data

Results flagged for a closer look

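The cell filter left out 675 neurosphere and 713 adherent barcodes, which enter no comparison between the cultures in the report and only the alternatives over all called barcodes. In the neurosphere barcodes left out, Wnt6 had 314 UMIs among 574706 on the genes kept, or 546 CPM (488 to 610), a level above the 230 CPM of the kept cells. The adherent barcodes left out had 0 Wnt6 UMIs among 392008, for which the exact upper limit is 9.41 CPM. Mitochondrial genes took 43.3% of the UMIs of the neurosphere barcodes left out and 35.1% of those of the adherent ones, against 3.93% and 2.10% in the kept cells. Wls stood at 567 CPM, Dll3 at 327 CPM and Krt8 at 2198 CPM in the neurosphere barcodes left out, against 285, 249 and 3025 CPM in the kept cells. The part of the mitochondrial share in the Wnt6 level was not tested.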

How the results depend on the processing

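Of 57 values under alternatives for 10 results, 49 stayed within the main value's interval or within 1.5 times the main count, 8 moved and 0 changed direction. Thinning each cell to 5000 UMIs gave log2 ratios of 9.83 for Wnt6, from 7 adherent cells with a UMI, and, as a lower bound, 3.20 for Wnt2b. With all called barcodes, the adherent library held a Wnt2b UMI, under the floor of 3 counts, and no fold is given. This value is among the 49 because the main interval of Wnt2b has no upper end. The share of neurosphere ligand UMIs from Wnt6 was 96.5% after thinning and 95.6% without the cells over the 95th percentile of UMIs. The share of neurosphere cells with a Wnt6 UMI was 43.9% thinned to 5000 UMIs, 35.9% thinned to 3000 UMIs and 51.9% over all called barcodes. With cluster means taken out, 9 of the 15 genes most like Wnt6 stayed among the first 15, and under the other alternatives between 12 and 14 did. The cause was not tested for any of these moves. For Wnt6 by cluster only the highest level was compared, and the lowest was 69.2 CPM and, at resolution 0.6, 105.5 CPM. The count of genes over 2-fold higher was 3181 and ran from 2257 (median of ratios) to 4621 (no minimum). No paired analysis was possible because each culture has 1 library.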

Other observations

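Other gene lists had weak relations to Wnt6 across the 4196 thinned neurosphere cells. The Notch list had an r of 0.154, with 2.22 UMIs per thinned cell, and the integrated stress response list -0.114. Hypoxia-induced genes had -0.052 and dissociation stress genes 0.034. The mitochondrial percent of the cell had an r of 0.148 with Wnt6, and its median was 3.83% in cells without Wnt6 and 4.67% in cells with more than 5 Wnt6 UMIs.

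Transcript counts do not show secreted ligand, and UMIs counted at the 3′ end do not tell isoforms apart. With 1 library per culture, spread between cultures was not measured. The adherent counts of Wnt6, Wnt4 and Wnt7b rest on under 100 UMIs each. The share of Wnt6 UMIs that came from free RNA was not measured in either library.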
